A study of Mus musculus with 12 samples.

Results

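The genes described here encode the proteins of the mitochondrial ribosome that carry the names *Mrpl* (large subunit) and *Mrps* (small subunit). They were taken from the count table by symbol, as *Mrpl* or *Mrps* followed by a digit, and had to reach at least 10 counts in 3 or more of the 12 libraries. Of 19308 genes in the table, 78 met the rule, and no gene with such a symbol failed it on counts. Each library came from the heart of a C57BL/6 mouse, either wild type (WT) or globally deleted for *Fabp3* by CRISPR-Cas9 (F3-KO, homozygous). *Fabp3* encodes the fatty acid binding protein of heart and muscle, and its loss in these mice is not limited to cardiomyocytes. The mice had a sham operation or transverse aortic constriction (TAC, ligation of the aortic arch that raises the pressure load on the left ventricle) at 8 weeks of age, and the hearts were frozen 1 week later. This gave 4 groups of 3 hearts: WT sham, F3-KO sham, WT TAC and F3-KO TAC. None of the mice carried another allele or received a drug per the labels.

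Mitochondria translate a small set of messenger RNAs from their own genome, and all the products of these are membrane subunits of the respiratory chain and the ATP synthase. The ribosome that does so has RNAs made inside the organelle, while every one of its proteins is encoded in the nucleus, made in the cytosol and imported. Some of these proteins have a counterpart in the bacterial ribosome and others were acquired by mitochondria. The heart depends on oxidative phosphorylation for most of its ATP, and inherited defects of several of these proteins, among them MRPL3, MRPL44 and MRPS22, cause cardiomyopathy in patients. By subunit, 51 of the 78 genes were assigned to the large subunit (30 with a bacterial counterpart and 21 specific to mitochondria) and 26 to the small subunit (16 and 10). *Mrps30* and *Mrps18a* were counted with the large subunit, where their products sit despite the names. *Mrps36* was left unassigned, since its product is now known as an adaptor of the 2-oxoglutarate dehydrogenase complex.

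Estimated counts per library summed to between 10424289 and 14371981, and the 78 genes together took 0.415% to 0.536% of them. The lowest count of any of these genes in any library was 181. That is far above a floor of 3 counts, which would correspond to at most 0.288 CPM (counts scaled to a common library size). *Fabp3* itself stood at 2120 to 2850 CPM in WT sham hearts and 2890 to 3060 CPM in WT TAC hearts, against 1040 to 1090 CPM in F3-KO sham hearts and 1000 to 1140 CPM in F3-KO TAC hearts. The transcript was thus lower in both F3-KO groups, as the labels give the genotype, but it was still counted. The 3 libraries of a group were biological replicates per the study, and in all 12 pairs within a group the counts differed by more than sampling noise. In bulk tissue, fewer cells of a type and less RNA per cell cannot be told apart. Cardiomyocyte markers were abundant in every library, their summed level being 86000 to 135000 CPM.

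Most of these genes were lower in F3-KO TAC hearts than in F3-KO sham hearts, while in WT hearts they showed no common direction after TAC. On a log2 scale relative to the WT sham mean, the median over the 78 genes took values of 0.03, 0 and -0.03 for WT sham replicates 1 to 3, and of 0.15, 0.04 and 0.18 for those of F3-KO sham. For WT after TAC the 3 hearts gave -0.26, 0.17 and 0.13, whereas F3-KO after TAC gave -0.15, -0.34 and -0.08. All 3 F3-KO TAC hearts therefore had medians below those of the sham hearts, and so did WT TAC replicate 1, which stood apart from the other two WT TAC hearts. Of the 78 genes, 62, 74 and 53 were below their WT sham mean in F3-KO TAC replicates 1, 2 and 3. The corresponding numbers were 69, 8 and 15 for WT TAC hearts and 7, 32 and 6 for F3-KO sham hearts. F3-KO TAC replicate 2 held the lowest level of all 12 hearts for 40 genes and WT TAC replicate 1 for 19. The highest level was found in F3-KO sham replicate 3 for 20 genes and in WT TAC replicate 3 for 19. The median over all tested genes in the same hearts stayed between 0 and 0.01.

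**Figure D1:**
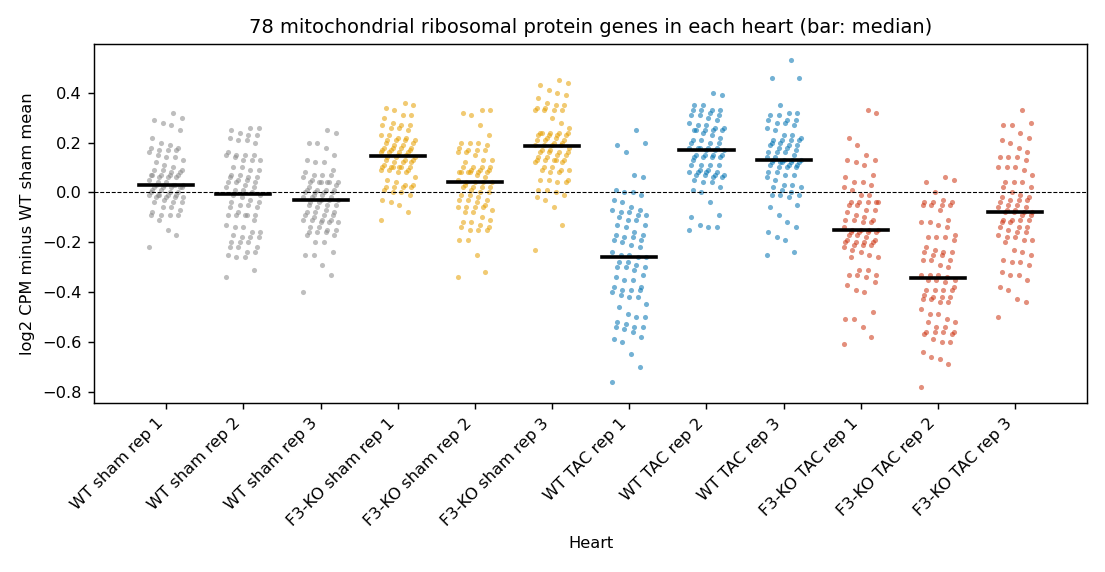
Level of each of the 78 mitochondrial ribosomal protein genes in each of the 12 hearts, as log2 CPM minus the gene's mean over the 3 WT sham hearts (y axis), with 1 point per gene and a black bar at the median. The bars of WT TAC replicate 1 (-0.26) and of the 3 F3-KO TAC hearts (-0.15, -0.34 and -0.08) are the lowest, and the other 2 WT TAC hearts (0.17 and 0.13) are on the side of the F3-KO sham hearts.

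The spread between hearts differed by group. The median over the 78 genes of the SD of log2 CPM was lowest in F3-KO sham hearts (0.11) and WT sham hearts (0.14), and higher among F3-KO TAC (0.17) and WT TAC hearts (0.25). Over all tested genes it was 0.16, 0.22, 0.24 and 0.25 in this order, so these genes varied less between hearts than the typical gene except after TAC in WT. The widest spread in the WT TAC group was that of *Mrpl18* (SD 0.59), and in the F3-KO TAC group that of *Mrps35* (SD 0.43). *Mrpl18* overlaps *Tcp1*, and reads may be shared between overlapping genes because the strand setting of the counting is not given in the sources used here.

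TAC against sham was first compared within F3-KO hearts. Of the 78 genes, 77 had a negative log2 fold change and 1 a positive one, with a median of -0.31 (a median change of -19.2%) and a range of -0.64 to 0.01, while the median over all 14094 tested genes was 0.02. For 41 of them all 3 F3-KO TAC hearts were below all 3 F3-KO sham hearts, against 11.4% of all tested genes, and for 0 they were all above, against 11.5%. At an unadjusted p of at most 0.05, 25 were lower, against 6.47% of all tested genes, and 0 were higher, against 10.6%. None passed the test across all genes (edgeR quasi-likelihood, Benjamini-Hochberg adjusted p under 0.05), which called 0% of all tested genes in this comparison, and the lowest adjusted p of the 78 genes by edgeR was 0.175. DESeq2's Wald test called 3 of them lower, against 3.15% of all genes it tested, called in either direction. limma-trend called 0, against 0.0568% of all genes. The count of 25 dropped to 9 when F3-KO TAC replicate 2 was left out, in a fit where 3.68% of all genes were lower at that threshold. It was 37, against 7.82% of all genes, without WT TAC replicate 1, which is no part of this comparison but enters the shared estimate of spread. With scaling by the library total alone it was 16, against 4.15% of all genes, and the median was -0.22, in a fit where the median over all genes was 0.12.

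**Figure D2:**
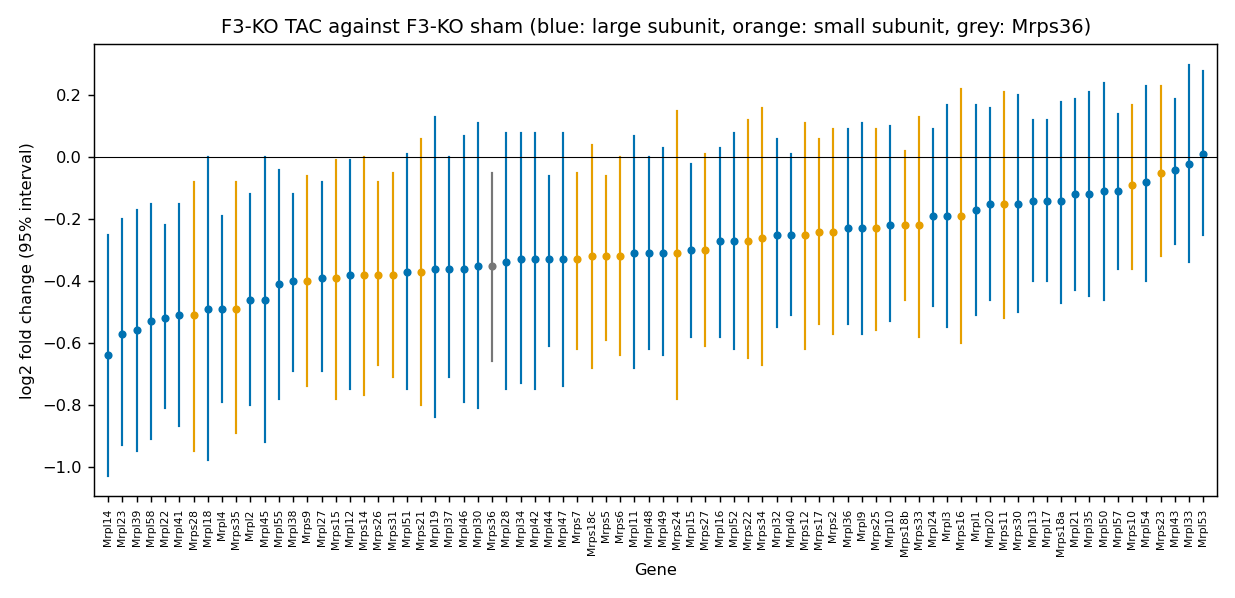
Log2 fold change between F3-KO TAC and F3-KO sham hearts (y axis) for each of the 78 genes, ordered from lowest to highest (x axis), with bars for the 95% interval from edgeR and colours for the subunit. The estimates run from -0.64 for *Mrpl14* to 0.01 for *Mrpl53*, and genes of both subunits lie along the whole order.

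*Mrpl14* (NCBI gene 68463), whose product lies at the face of the large subunit that meets the small one, had the lowest estimate. Its level was 57.6, 49.8 and 57.6 CPM in the F3-KO sham hearts and 34.6, 32.7 and 38.8 CPM in the F3-KO TAC hearts. The highest F3-KO TAC heart was thus below the lowest sham heart of either genotype, the WT sham hearts having 52.3, 57.7 and 48.9 CPM. The log2 fold change was -0.64 ± 0.18 (SE, n = 3 against 3, edgeR adjusted p = 0.175). In WT TAC hearts the level was 34.7, 58.4 and 57.5 CPM, so that replicate 1 was at the F3-KO TAC level and the other two at the sham level. *Mrpl14* overlaps the gene *Tmem63b* in RefSeq, and its counts are uncertain to that extent.

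Estimates for some proteins at the nascent peptide tunnel and its exit follow, and differences among them were not tested. *Mrpl22*, *Mrpl4*, *Mrpl24* and *Mrpl17* were chosen after their values were seen. *Mrpl23* (NCBI gene 19935), encoding a protein at the tunnel exit, had 82.5, 66.7 and 82.4 CPM in F3-KO sham hearts and 49.3, 48.5 and 58.6 CPM in F3-KO TAC hearts, with no overlap and a log2 fold change of -0.57 ± 0.17 (edgeR adjusted p = 0.179). RefSeq lists 1 pseudogene of *Mrpl23*, with which reads could be shared. *Mrpl22* (NCBI gene 216767), whose product lines the tunnel, had 26.4, 27 and 26.9 CPM in F3-KO sham hearts and 20, 17.6 and 18.5 CPM in F3-KO TAC hearts. The 2 groups did not overlap, and the log2 fold change of *Mrpl22* was -0.52 ± 0.13 (edgeR adjusted p = 0.175, DESeq2 adjusted p = 0.0315). *Mrpl4* (NCBI gene 66163), another tunnel protein, had 137, 120 and 136 CPM in F3-KO sham and 96.8, 81.9 and 100 CPM in F3-KO TAC hearts, again without overlap (log2 fold change -0.49 ± 0.14, edgeR adjusted p = 0.175, DESeq2 adjusted p = 0.0289). *Mrpl14* was the third gene called by DESeq2 (adjusted p = 0.0387). *Mrpl45*, which ties the tunnel exit to the inner membrane, was lower in all F3-KO TAC hearts too (83.3, 59.4 and 62.1 CPM against 96.8, 86.8 and 98 CPM), with a wider interval of -0.92 to 0 on the log2 scale. *Mrpl24* and *Mrpl17*, whose products also lie near the exit, had log2 fold changes of -0.19 ± 0.13 and -0.14 ± 0.12, above the median of the 78 genes.

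*Mrpl39* (NCBI gene 27393), encoding a large-subunit protein specific to mitochondria, had 99.1, 107 and 134 CPM in F3-KO sham hearts and 71, 67.5 and 92 CPM in F3-KO TAC hearts, without overlap. Its log2 fold change was -0.56 ± 0.18 (edgeR adjusted p = 0.184), and -0.71 without F3-KO TAC replicate 3, when the adjusted p was 0.0498. *Mrps35* (NCBI gene 232536), encoding a small-subunit protein specific to mitochondria, also depended on that heart. It had 99.1, 95.4 and 106 CPM in F3-KO sham hearts against 65.6, 53.3 and 95.8 CPM in F3-KO TAC hearts. F3-KO TAC replicate 3 was at the level of the lowest sham heart, and the log2 fold change of -0.49 ± 0.19 (edgeR adjusted p = 0.223) became -0.76 without it (adjusted p = 0.0262). That fit called 5.43% of all genes and 2 of the 78, *Mrps35* and *Mrpl39*. *Mrpl58* (NCBI gene 68572), a peptidyl-tRNA hydrolase built into the large subunit that can release stalled chains, had 65.8, 52.5 and 65 CPM in F3-KO sham and 40.8, 35.5 and 50.9 CPM in F3-KO TAC hearts. These groups did not overlap, with a log2 fold change of -0.53 ± 0.18 and an edgeR adjusted p of 0.189.

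At the other end of the order, *Mrpl53*, *Mrpl33* and *Mrpl43* had nearly the same level in both F3-KO groups. *Mrpl53* (NCBI gene 68499) had 36.3, 37.2 and 39.6 CPM in F3-KO sham and 36.6, 36.6 and 41 CPM in F3-KO TAC hearts, a log2 fold change of 0.01 with a 95% interval of -0.25 to 0.28. *Mrpl33*, with a bacterial counterpart, had an interval of -0.34 to 0.3 around -0.02, and *Mrpl43* one of -0.28 to 0.19 around -0.04. These intervals do not exclude the median of -0.31 for *Mrpl33*, and they exclude it for *Mrpl53* and *Mrpl43*. The genes were picked for having the highest estimates in this comparison, and the intervals are not adjusted for that choice. The intervals therefore cannot show that any of these genes differs from the other mitochondrial ribosomal protein genes. *Mrpl53* overlaps *Ccdc142* and *Mrpl43* overlaps *Twnk*.

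**Figure D3:**
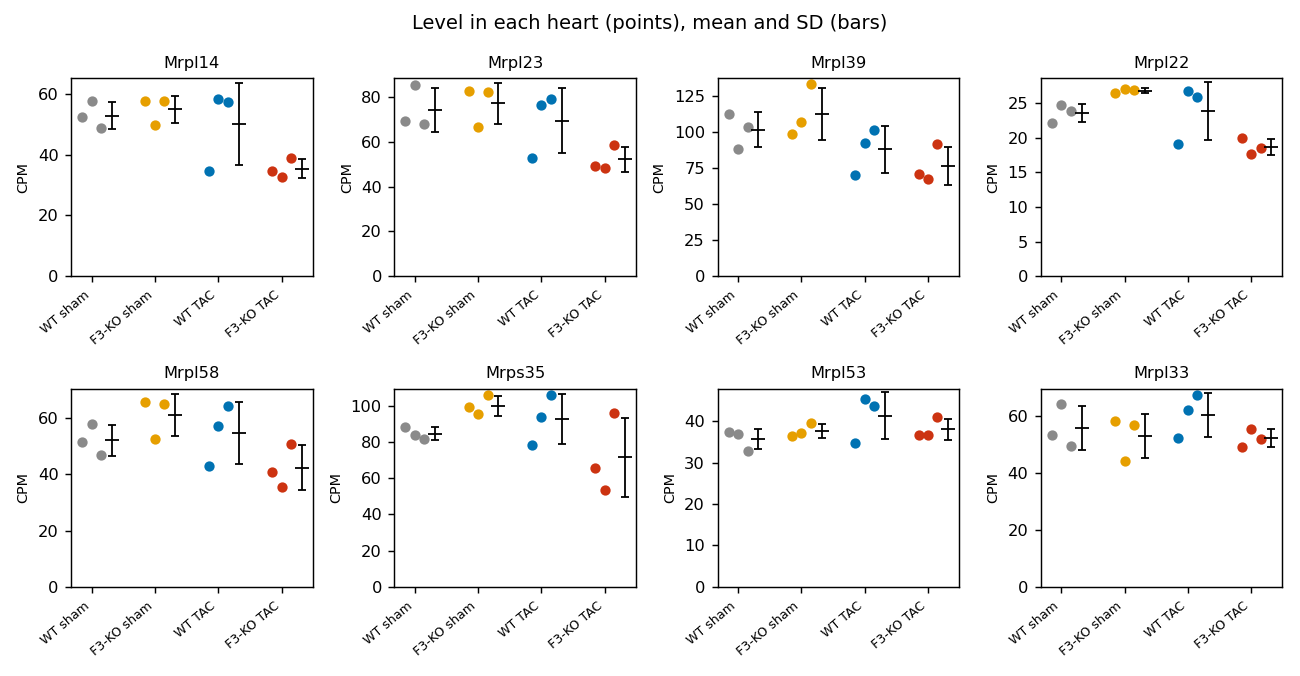
CPM (TMM-scaled, y axis from 0) of 8 named genes in each heart of the 4 groups, 1 point per heart, with the mean and SD (n = 3) beside them. In the panels of *Mrpl14*, *Mrpl23*, *Mrpl39*, *Mrpl22* and *Mrpl58* all 3 F3-KO TAC points are below all 3 F3-KO sham points, in that of *Mrps35* 1 F3-KO TAC heart (95.8 CPM) reaches the sham range, and *Mrpl53* and *Mrpl33* overlap between the groups.

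The promoters of genes that encode mitochondrial ribosomal proteins are known to be rich in sites for the factors NRF1 and GABPA (NRF2, of the ETS family), which drive genes of mitochondrial biogenesis. RefSeq promoter windows of 300 bases, from 250 before to 50 after the transcription start (build GRCm38.p6), were found for 69 of the 78 genes, 75 windows in all. The ETS core CCGGAAG was in 26 windows (34.7%), the paired NRF1 half-sites GCGCNNGCG in 21 (28.0%) and the YY1 core AAGATGGCG in 8 (10.7%), each searched on both strands. Among all 18021 windows of genes in the count table, the shares were 13.4%, 18.9% and 2.18%. At least 1 of the 3 was in 46 of the 75 windows (61.3%), against 30.1% of all windows. The NRF1 motif is nearly its own reverse complement, so that a match on each strand, shifted by 1 base, can mark a single stretch. The windows of 3 genes with a low estimate in F3-KO hearts after TAC and of the gene with the highest one are shown, with motif matches in capitals, 5′ to 3′ on the strand of the gene. They are *Mrpl14* at chr17:45686099-45686398 (+ strand), *Mrpl22* at chr11:58171414-58171713 (+ strand), *Mrpl58* at chr11:115403502-115403801 (+ strand) and *Mrpl53* at chr6:83108858-83109157 (+ strand).
Mrpl14: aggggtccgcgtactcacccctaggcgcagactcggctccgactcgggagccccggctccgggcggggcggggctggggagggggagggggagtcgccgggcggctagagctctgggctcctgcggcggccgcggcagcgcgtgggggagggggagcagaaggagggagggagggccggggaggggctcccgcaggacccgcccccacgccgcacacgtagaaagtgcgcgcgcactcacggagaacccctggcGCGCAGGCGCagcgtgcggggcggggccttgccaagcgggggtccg
Mrpl22: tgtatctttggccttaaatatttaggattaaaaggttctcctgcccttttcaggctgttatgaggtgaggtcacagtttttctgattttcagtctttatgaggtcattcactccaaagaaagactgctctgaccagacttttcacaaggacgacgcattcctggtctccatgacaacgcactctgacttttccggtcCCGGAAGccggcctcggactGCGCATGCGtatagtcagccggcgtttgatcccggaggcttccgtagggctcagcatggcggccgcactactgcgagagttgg
Mrpl58: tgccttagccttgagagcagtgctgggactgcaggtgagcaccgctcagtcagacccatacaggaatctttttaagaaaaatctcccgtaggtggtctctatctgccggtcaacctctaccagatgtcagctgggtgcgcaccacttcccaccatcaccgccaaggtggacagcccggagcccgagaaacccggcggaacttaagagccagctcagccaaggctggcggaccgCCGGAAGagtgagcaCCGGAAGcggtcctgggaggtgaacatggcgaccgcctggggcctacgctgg
Mrpl53: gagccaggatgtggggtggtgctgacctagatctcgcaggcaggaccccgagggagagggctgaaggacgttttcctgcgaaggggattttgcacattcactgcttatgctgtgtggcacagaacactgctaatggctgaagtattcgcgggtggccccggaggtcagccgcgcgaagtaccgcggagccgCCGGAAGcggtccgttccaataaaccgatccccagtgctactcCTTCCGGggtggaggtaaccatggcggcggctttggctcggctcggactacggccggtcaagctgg
In the *Mrpl14* window the capitals are NRF1 half-sites that begin 4 and 5 bases after the start base, 1 on each strand. *Mrpl22* has an ETS core 53 bases and NRF1 half-sites 33 bases before the start. *Mrpl58* has ETS cores at -17 and -2, and *Mrpl53* at -59 and -16, the latter on the opposite strand. The gene with the highest estimate thus held the same ETS core as *Mrpl22* and *Mrpl58*, and the window of *Mrpl23*, the second lowest, held none of the 3 motifs. A match here is a run of letters and says nothing of binding. *Mrps11* and *Mrpl46* start 42 bases apart on opposite strands, and their log2 fold changes in F3-KO hearts after TAC were -0.15 ± 0.17 and -0.36 ± 0.2.

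In WT hearts, TAC against sham gave 42 positive and 36 negative log2 fold changes with a median of 0.01 and a range of -0.21 to 0.32, and the median over all tested genes was 0. Hearts of the groups did not overlap for 3 genes. *Mrpl15* was lower in all WT TAC hearts, against 4.43% of all tested genes, and *Mrps10* and *Mrps18a* were higher, against 4.7%. At an unadjusted p of at most 0.05, 0 of the 78 were lower (2.6% of all tested genes) and 1 was higher (3.68%). None of the 78 was called by edgeR (0% of all tested genes), DESeq2 (0.192%) or limma-trend (0.0071%). *Mrps18a* (NCBI gene 68565), the S18 relative of the large subunit, had 75.2, 75 and 75 CPM in WT sham hearts and 78.7, 94.3 and 108 CPM in WT TAC hearts (log2 fold change 0.32 ± 0.15, edgeR adjusted p = 0.782), and it overlaps *Rsph9*. *Mrps10* had 20.6, 19.8 and 20.5 CPM in WT sham and 23.4, 23.3 and 27.9 CPM in WT TAC hearts (log2 fold change 0.29 ± 0.12, edgeR adjusted p = 0.782). *Mrpl49* and *Mrpl39* had the lowest estimates, both -0.21, and *Mrpl47* followed at -0.2. These values depended on single WT TAC hearts. Without replicate 1 the median over the 78 genes was 0.15 and 8 estimates were negative. In that fit 4 genes were higher at the unadjusted threshold, against 1.88% of all genes. Without replicate 2 the median was -0.06 and 53 estimates were negative. In that fit 1 gene was lower at the unadjusted threshold, against 3.17% of all genes.

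The TAC effect was then compared between the genotypes by the interaction term of the model. The effect was lower in F3-KO than in WT hearts for 77 of the 78 genes, with a median difference of -0.32 on the log2 scale and a range of -0.62 to 0.04, against a median of 0.03 over all tested genes. The difference was negative for 13 of the 78 at the unadjusted threshold, against 2.18% of all tested genes. None passed the adjusted threshold in edgeR, which called 0% of all tested genes. DESeq2 (0.0426% of all genes) and limma-trend (0.0071%) called none of the 78 either. The lowest estimates were those of *Mrps35* (-0.62 ± 0.26), *Mrpl58* (-0.6 ± 0.25) and *Mrpl14* (-0.56 ± 0.25), each with an adjusted p of 0.954 by edgeR. *Mrpl22* differed by -0.53 ± 0.19 and *Mrps36* by -0.51 ± 0.2. *Mrpl50*, *Mrpl1* and *Mrpl43* had the highest estimates, from -0.07 to 0.04. The count of 13 was 34 without WT TAC replicate 1, against 4.23% of all genes, and 1 without F3-KO sham replicate 3, against 1.25%. The median ranged from -0.43 to -0.23 as single hearts were left out. With scaling by library total alone the median was -0.18 and the count 2, against 1.18% of all genes.

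**Figure D4:**
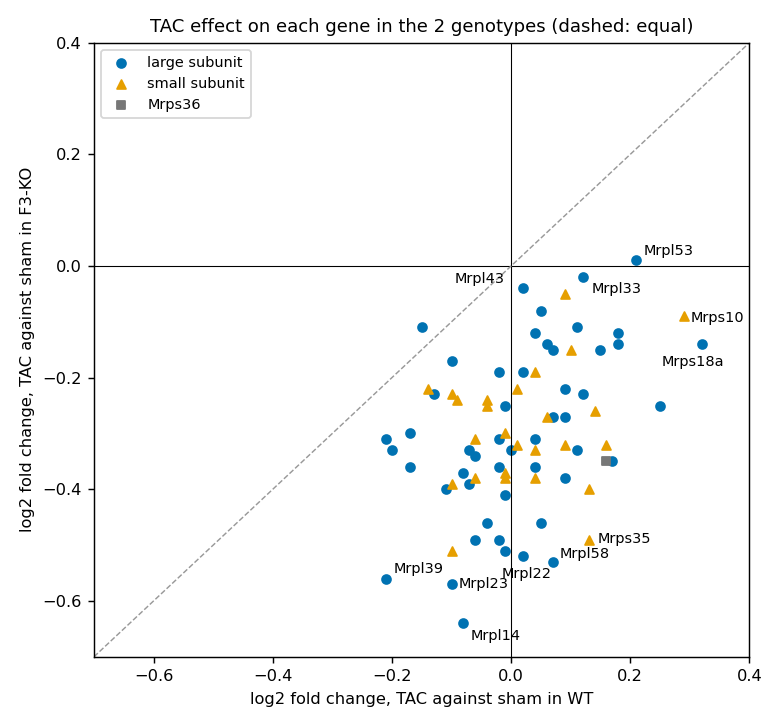
Log2 fold change between TAC and sham hearts in WT (x axis) and in F3-KO (y axis), 1 point per gene, with large-subunit genes as circles, small-subunit genes as triangles and *Mrps36* as a square. All points but 1 lie below the dashed line of equal effect, spread around 0 on the x axis (-0.21 to 0.32) and from -0.64 to 0.01 on the y axis.

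After the sham operation, F3-KO against WT gave a median log2 fold change of 0.12, with 69 of the 78 estimates positive and a range of -0.18 to 0.31, while the median over all tested genes was 0. All F3-KO sham hearts were above all WT sham hearts for 14 genes, against 6.81% of all tested genes, and below them for 0, against 6.92%. At an unadjusted p of at most 0.05, 0 were higher (2.81% of all tested genes) and 0 lower (3.21%). None of the 78 was called by edgeR (0.106% of all tested genes), DESeq2 (0.746%) or limma-trend (0.177%). The highest estimate was that of *Mrps9*, with 89.7, 61.1 and 71.5 CPM in WT sham and 94, 84.1 and 98.4 CPM in F3-KO sham hearts (log2 fold change 0.31 ± 0.16, edgeR adjusted p = 0.895), where 1 WT heart was within the range of the F3-KO hearts. *Mrpl3* and *Mrps2* followed at 0.3 and 0.28. *Mrps36*, whose groups did not overlap, had 75.8, 72.4 and 67.3 CPM against 86.4, 78.1 and 91.9 CPM. The lowest estimates were -0.18 for *Mrpl54*, -0.08 for *Mrpl36* and -0.07 for *Mrpl33*. Without WT sham replicate 1, 3 genes were higher at the unadjusted threshold, against 2.77% of all genes. The F3-KO sham hearts are also the reference for TAC in F3-KO hearts, so this comparison and that one share 3 hearts.

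After TAC, F3-KO against WT gave a median of -0.21, with 71 negative and 7 positive estimates between -0.5 and 0.15, and a median over all tested genes of 0.02. All F3-KO TAC hearts were below all WT TAC hearts for 7 genes, against 5.1% of all tested genes, and above them for 0, against 6.3%. The 7 were *Mrpl16*, *Mrpl32*, *Mrpl38*, *Mrpl40*, *Mrpl44*, *Mrpl52* and *Mrps5*. At an unadjusted p of at most 0.05, 9 were lower, against 4.16% of all tested genes, and 0 higher, against 5.84%. edgeR called 0 of the 78 against 0.078% of all tested genes, with a lowest adjusted p of 0.464. DESeq2 (0.717% of all genes) and limma-trend (0.0993%) called none of the 78. *Mrpl14* had again the lowest estimate (-0.5 ± 0.18), although WT TAC replicate 1, at 34.7 CPM, was within the F3-KO TAC range. *Mrpl23* (-0.41 ± 0.17) and *Mrps35* (-0.37 ± 0.19) followed. *Mrpl44*, which resembles RNase III and helps assemble the large subunit, had 47.6, 52.4 and 54.9 CPM in WT TAC and 41.7, 35.5 and 46.9 CPM in F3-KO TAC hearts (log2 fold change -0.32 ± 0.13, edgeR adjusted p = 0.474), and it overlaps *Wdfy1*. The highest estimates were those of *Mrpl50* (0.15), *Mrpl3* and *Mrps2* (both 0.09). The 9 genes became 35, with a median of -0.33, without WT TAC replicate 1, when 7.22% of all genes were lower at that threshold. Without WT TAC replicate 2 they became 0, with a median of -0.12, against 2.97% of all genes. With scaling by library total alone the median was -0.11 and 1 gene was lower, against 2.27% of all genes, in a fit where the median over all genes was 0.12. This comparison shares the F3-KO TAC hearts with that of TAC in F3-KO hearts.

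Averaged over genotypes, TAC against sham gave a median of -0.15 and 68 negative estimates, with 10 genes lower at an unadjusted p of at most 0.05 (6.52% of all tested genes) and 0 called by edgeR (0.078%), DESeq2 or limma-trend. The lowest were *Mrpl39* (-0.38), *Mrpl14* (-0.36) and *Mrpl23* (-0.33), and the highest *Mrpl53* (0.11), *Mrps10* (0.1) and *Mrps18a* (0.09). Averaged over surgeries, F3-KO against WT gave a median of -0.04, with 59 negative estimates. In that comparison 0 were called by edgeR (0.412% of all tested genes), DESeq2 (1.54%) or limma-trend (0.475%). Only 1 gene was lower at the unadjusted threshold (4.74% of all tested genes). This gene was *Mrpl54*, at -0.24 (edgeR adjusted p = 0.45). Without WT TAC replicate 2 the count for TAC was 20, against 7.54% of all genes, and without F3-KO sham replicate 1 it was 6, against 4.94%. Without WT TAC replicate 1 the count for F3-KO was 6, against 6.7%, and without WT sham replicate 2 it was 0, against 5.08%. The levels of *Mrpl54* were 49, 55.4 and 51.1 CPM (WT sham), 52.5, 40.8 and 44.2 CPM (F3-KO sham), 45.3, 54.5 and 61.4 CPM (WT TAC) and 41.2, 39.5 and 49.1 CPM (F3-KO TAC), and the groups overlapped for each surgery.

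The subunits were then described side by side, without a test of the difference. In F3-KO hearts after TAC the medians were -0.31 for the 51 large-subunit genes and -0.31 for the 26 small-subunit genes. At the unadjusted threshold 15 and 9 were lower, against 6.47% of all tested genes. Without overlap 26 and 15 were lower, against 11.4%. By origin the medians were -0.3 for large-subunit proteins with a bacterial counterpart, -0.31 for those specific to mitochondria, -0.32 for small-subunit proteins with a counterpart and -0.26 for those without. For F3-KO against WT after TAC they were -0.19, -0.24, -0.22 and -0.13. For F3-KO against WT after TAC 8 of the 51 large-subunit genes and 1 of the 26 small-subunit genes were lower at the unadjusted threshold, against 4.16% of all tested genes. Without overlap 6 and 1 were lower, against 5.1%. For TAC averaged over genotypes 10 and 0 were lower at the unadjusted threshold, against 6.52% of all tested genes. The proteins of the flexible stalk that recruits translation factors had estimates of -0.38 (*Mrpl12*, with 172, 143 and 149 CPM in F3-KO sham and 132, 104 and 122 CPM in F3-KO TAC hearts), -0.22 (*Mrpl10*) and -0.31 (*Mrpl11*). *Mrps12* and *Mrps5*, whose bacterial counterparts set the accuracy of decoding, had -0.25 ± 0.17 and -0.32 ± 0.12. *Mrps5* had 57.9, 53 and 56.3 CPM in F3-KO sham hearts against 47.1, 37 and 49.5 CPM in F3-KO TAC hearts, without overlap. The relatives of bacterial S18, *Mrps18a*, *Mrps18b* and *Mrps18c*, had -0.14, -0.22 and -0.32. Of the genes tied to cardiomyopathy, *Mrpl44* had -0.33 ± 0.13 (edgeR adjusted p = 0.223), *Mrps22* -0.27 ± 0.18 and *Mrpl3* -0.19 ± 0.16. Among the remaining genes named for their role, *Mrps28* had -0.51, *Mrpl41* -0.51, *Mrpl27* -0.39, *Mrps14* -0.38, *Mrps7* -0.33, *Mrps2* -0.24, *Mrpl36* -0.23, *Mrps16* -0.19 and *Mrps30* -0.15. *Mrps36* had -0.35 ± 0.14, close to the median of the ribosomal proteins proper, with 3 pseudogenes in RefSeq.

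Genes that work with the mitochondrial ribosome were summarised in the same comparison, TAC against sham in F3-KO hearts, and edgeR called none in any of these lists. Of all tested genes, 6.47% were lower at the unadjusted threshold. Ribosomal proteins with other names gave a median of -0.29, with 5 of 5 estimates negative and 2 lower at the unadjusted threshold, *Dap3* (-0.43), a GTP-binding protein of the small subunit, and *Gadd45gip1* (-0.46). Of 26 assembly factors all 26 were negative (median -0.28) and 5 were lower, *Mtg2*, *Rbfa*, *Mrm1*, *Eral1* and *Mterf4*, at -0.56 to -0.33. Of 15 translation factors 12 were negative (median -0.11) and 3 were lower, the elongation factors *Tufm* (-0.45) and *Tsfm* (-0.43) and the membrane insertase *Oxa1l* (-0.4). All 20 aminoacyl-tRNA synthetases and amidotransferase subunits were negative (median -0.23), 3 of them lower at the unadjusted threshold. Genes of mitochondrial DNA maintenance and transcription had a median of -0.22 with 10 of 13 negative, *Polg2* (-0.59) being the 1 that was lower. In WT hearts after TAC the medians of these 5 lists were -0.08, -0.02, 0, -0.12 and -0.13. The 13 messenger RNAs encoded by mitochondrial DNA were not found in the count table under the symbols searched, and so were not analysed.

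The regulators of mitochondrial biogenesis were negative for 6 of 11 in F3-KO hearts after TAC (median -0.03), for 9 of 11 in WT hearts after TAC (median -0.14) and for 9 of 11 averaged over genotypes (median -0.08). *Esrra*, a nuclear receptor that activates oxidative genes, was at -0.48 ± 0.16 (edgeR adjusted p = 0.184) and *Myc* at 0.73 ± 0.32 (edgeR adjusted p = 0.269). *Nrf1* (-0.1 ± 0.13), *Gabpa* (-0.03 ± 0.13) and *Ppargc1a* (-0.27 ± 0.23) had an unadjusted p above the threshold, as had *Tfam* (-0.16 ± 0.16) of the list of mitochondrial DNA maintenance. In WT hearts after TAC *Ppargc1a* was at -0.3, *Esrra* at -0.27, *Tfam* at -0.19 and *Myc* at 1.19 ± 0.32 (edgeR adjusted p = 0.76).

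The nuclear-encoded subunits of the respiratory chain, with those of the ATP synthase counted among them, showed lower values in the same hearts. In F3-KO hearts after TAC all 81 were negative (median -0.49) and 53 were lower at the unadjusted threshold, against 77 of 78, -0.31 and 25 for the mitochondrial ribosomal proteins. Their median was 0.03 for TAC in WT hearts, 0.15 for F3-KO against WT after sham and -0.37 after TAC. The 77 genes of the cytosolic ribosome, counted for a comparison with the other ribosome of the cell, had medians of 0.11 for TAC in WT hearts, -0.13 for TAC in F3-KO hearts, -0.03 for F3-KO against WT after sham and -0.26 after TAC. At the unadjusted threshold 1 of the cytosolic genes was lower and 1 higher in F3-KO hearts after TAC, against 6.47% and 10.6% of all tested genes. Per heart the cytosolic genes followed another order, with medians of -0.13, 0.42 and -0.31 in the 3 WT sham hearts, where the mitochondrial ones stayed within 0.03 of 0. No difference between these lists was tested, and many cytosolic ribosomal protein genes have processed pseudogenes that can take up their reads.

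**Figure D5:**
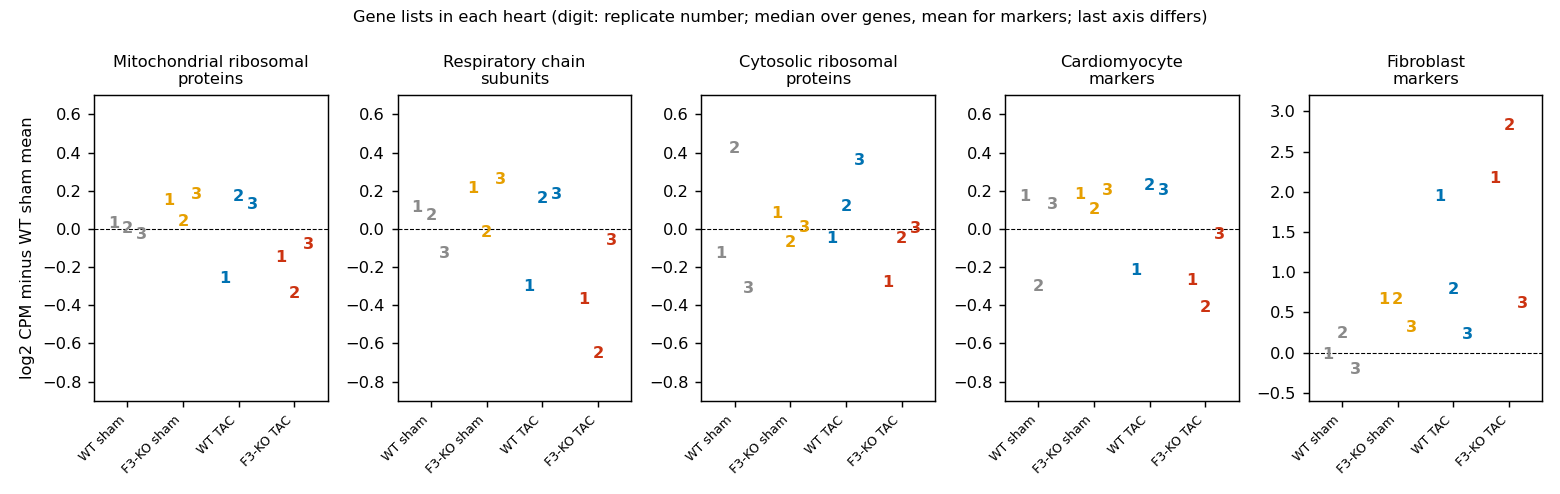
Log2 CPM minus the WT sham mean (y axis) in each heart, by group (x axis), for 3 gene lists (median over genes) and 2 marker lists (mean over markers), each heart drawn as its replicate number, with a wider axis for fibroblast markers. WT TAC replicate 1 and F3-KO TAC replicates 1 and 2 are low for mitochondrial ribosomal proteins (-0.26, -0.15 and -0.34), respiratory chain subunits and cardiomyocyte markers, and high for fibroblast markers (1.94, 2.17 and 2.83).

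Some cell type markers differed between hearts and groups as well. The mean of 12 cardiomyocyte markers relative to WT sham was -0.22, 0.23 and 0.2 for the WT TAC replicates, -0.27, -0.41 and -0.03 for those of F3-KO TAC, and 0.18, 0.1 and 0.2 for those of F3-KO sham. The WT sham hearts gave 0.17, -0.3 and 0.13, so that replicate 2 had low cardiomyocyte markers beside a median of 0 for the mitochondrial ribosomal proteins. Their summed level was lowest in F3-KO TAC hearts (86000 to 101000 CPM), and ranged from 94700 to 122000 CPM for WT sham, from 120000 to 128000 CPM for F3-KO sham and from 96000 to 135000 CPM for WT TAC. In F3-KO hearts after TAC 10 of the 12 cardiomyocyte markers were negative, with a median log2 fold change of -0.43. The 8 fibroblast markers summed to 737 to 1620, 1040 to 1430, 1370 to 3390 and 1540 to 7810 CPM for WT sham, F3-KO sham, WT TAC and F3-KO TAC, and all 8 were positive after TAC in both genotypes. The 9 macrophage markers summed to 319 to 686, 447 to 542, 551 to 884 and 693 to 1140 CPM. The sums ranged over all hearts from 918 to 1640 CPM for endothelial, from 710 to 1230 CPM for smooth muscle and pericyte and from 8.08 to 42 CPM for neutrophil markers. The 5 erythroid markers summed to 1740, 656 and 1590 CPM (WT sham), 3640, 1070 and 4490 CPM (F3-KO sham), 4360, 2000 and 299 CPM (WT TAC) and 979, 930 and 366 CPM (F3-KO TAC). All 5 were lower at the unadjusted threshold in F3-KO hearts after TAC (median log2 fold change -2.16), where edgeR called none, and all 5 were positive in WT hearts after TAC (median 0.82, none past that threshold). The difference of the TAC effect was negative for all 5 at that threshold (median -3.08), and the F3-KO TAC hearts were below all F3-KO sham hearts in the summed level. The 6 proliferation markers were high in WT TAC replicate 1 (120 CPM) and in F3-KO TAC replicates 1 and 2 (268 and 97.2 CPM) and at 3.07 to 25 CPM in the other TAC hearts. Lymphocyte and adipocyte markers were near 0 in every library (at most 4.21 and 1.81 CPM in sum). Of the 6 adipocyte markers listed, 5 were in the count table. No listed marker found in the count table was at 0 in all libraries. The part of cell composition, blood included, in the lower values of the mitochondrial ribosomal protein genes was not tested.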

How the data were processed

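RNA was sequenced from 12 mouse hearts in 4 groups of 3, assigned by the labels. The authors deposited estimated counts per gene, not normalized, after filtering reads and mapping them with HISAT2 and STAR, per the study's methods. The counting tool, its strand setting and the annotation are not given in the sources used here, and the labels list 2 genome builds without a role, so no positions other than RefSeq's promoter windows are printed. Of the values, 40.6% were not whole, and all were rounded for testing although the tests had been planned for whole counts. For 11 hearts a table of that heart equalled the joint table, and 1 broke off early, so the joint table was used.

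Genes were filtered with filterByExpr (minimum count 10), which kept 14094 and removed 5214, scaled with TMM (factors 0.931 to 1.09) and fitted with the quasi-likelihood model of edgeR 4.0.16 over the 4 groups (8 residual degrees of freedom) in R 4.3.3. A total of 7 contrasts were taken, and p-values were adjusted by Benjamini-Hochberg over all tested genes. Intervals and standard errors are those of this model. CPM are TMM-scaled, except that marker sums and the floor use the library total alone, and log2 CPM used a prior count of 2. Alternatives were DESeq2 1.42.0, limma-trend (limma 3.58.1), other scalings and filters, a replicate block, fits of 6 libraries, an unadjusted p and leaving out each heart. The pipeline was tested on simulated data. Promoter motifs were searched with Python 3.11.15, and figures drawn with matplotlib 3.10.9.

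The members and gene lists were chosen with earlier results of these data known. Genes named one by one were those with a known role (22 genes) and the 3 lowest and 3 highest estimates of each comparison. *Mrpl22*, *Mrpl4*, *Mrpl17*, *Mrpl24*, *Mrpl15*, *Mrpl18*, *Mrps11*, *Mrpl46*, the genes that did not overlap after TAC and the genes named from the other lists were chosen after their values were seen. Depth allows a floor of 3 counts, 0.209 to 0.288 CPM, which covers counting error only.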

Additional observations from a re-analysis of the deposited data

How the results depend on the processing

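Counts of the 78 genes called were 0 in all 7 comparisons by edgeR with its TMM scaling, DESeq2's size factors or library totals, by limma-trend, with either other filter, with only the 6 libraries compared (4 of the comparisons) and with the replicate block. For TAC against sham in F3-KO hearts DESeq2's Wald test called 3, and leaving out a heart gave 0 to 2, the 2 without F3-KO TAC replicate 3. In the other 6 comparisons DESeq2 called 0, against 0.0426% to 4.66% of all genes. Every fit without a heart also called 0 there, against at most 5.92% of all genes. With an unadjusted p of at most 0.05 as the threshold, 1 gene was higher for TAC in WT (3.68% of all tested genes). The counts of lower genes were 25 for TAC in F3-KO (6.47%), 9 for F3-KO against WT after TAC (4.16%) and 10 for TAC averaged over genotypes (6.52%). They were 1 for F3-KO against WT averaged over surgeries (4.74%) and 13 for the difference of the TAC effect (2.18%). F3-KO against WT after sham gave 0 higher (2.81%) and 0 lower (3.21%). The median for TAC in F3-KO hearts stayed between -0.36 and -0.22 over all alternatives, and 72 to 78 of the 78 estimates were negative. With the replicate number as a block, 22 genes were lower at that threshold for TAC in F3-KO, against 6.78% of all genes. The block gave 9 for F3-KO against WT after TAC, against 4.16%, and 11 for the difference, against 2.25%. Deviations of hearts with the same number correlated at -0.14 to 0.36, over 0.1 in 4 of 12 pairs, so the numbers were not taken to pair the hearts. The 6-library fits gave 38 lower genes for TAC in F3-KO (7.82% of all genes) and 4 for F3-KO against WT after TAC (2.92%). No named gene was called in the main edgeR fit, so a change of sign in a called gene could not be observed. The cause of the changes in these counts was not tested. The lowest count of these genes in a library was 181, and the precision rests on 3 hearts a group. How much of the spread between hearts was counting error was not estimated gene by gene.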
